A study of Mus musculus with 2 samples.

Results

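The collagen genes were the 44 genes, of 32285 listed in the count table of each section, whose symbol consisted in full of Col, a number, the letter a and a number. Membership followed from the symbols alone and used no measured value. Spatial transcriptomics, which counts polyadenylated RNA in capture spots of known position, had been run on 1 coronal brain section with the dorsal hippocampus of both hemispheres from each of 2 adult male mice. Both mice were ArcCreERT2::eYFPflx on a C57BL/6 background, a line with a drug-inducible Cre under control of the activity-regulated gene Arc and a Cre-dependent fluorescent reporter. The trained mouse had learned to avoid a shock zone in a rotating arena, the untrained mouse had been in the same arena with the shock always off, and both brains were taken after a retention test without shock. Each group was therefore 1 section of 1 mouse, so intervals below cover counting error only, no test between the sections was possible, and all directions hold for the labels as deposited.

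Collagens are proteins of the extracellular matrix in which 3 chains wind into a triple helix, built from triplets of glycine and a pair of other residues (Gly-X-Y). Fibrillar collagens form the cables of connective tissue, type IV collagen forms the sheet-like network of basement membranes around vessels and under the pia, and the fibril-associated, short-chain, transmembrane and multiplexin collagens attach to these structures or modify them. In the brain, fibrillar collagens are known from the meninges and the walls of large vessels, whereas some other collagens are made by neurons or glia.

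The genes carry the triplet rule in their exons, many of which are 54 bases long and hold whole triplets. Of the inner coding exons of the 11 fibrillar genes, 305 of 627 (48.6%) had this length, against 12 of 284 (4.2%) in the 6 type IV genes. The longest unbroken run of Gly-X-Y triplets had a median of 338 triplets in the fibrillar class and 43.5 in the type IV class. The exons below were read from the GRCm38 genome in the sense of the gene and are shown because the results turn on their genes. Capitals mark the glycine codon that opens each triplet.
Col1a2 exon 8 (chr6:4515481-4515534, + strand): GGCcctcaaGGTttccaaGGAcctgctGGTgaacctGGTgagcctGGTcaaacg
Col3a1 exon 6 (chr1:45325360-45325413, + strand): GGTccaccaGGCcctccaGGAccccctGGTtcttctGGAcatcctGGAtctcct
Col4a1 exon 7 (chr8:11245211-11245264, - strand): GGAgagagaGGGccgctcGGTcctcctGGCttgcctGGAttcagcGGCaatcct
Col9a3 exon 5 (chr2:180601582-180601635, + strand): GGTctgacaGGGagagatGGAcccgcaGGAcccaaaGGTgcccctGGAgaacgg
Col11a1 exon 15 (chr3:114108281-114108334, + strand): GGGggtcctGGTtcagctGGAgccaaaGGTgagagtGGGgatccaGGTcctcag
Col25a1 exon 13 (chr3:130517684-130517737, + strand): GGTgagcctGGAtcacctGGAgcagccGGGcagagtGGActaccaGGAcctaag

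These exons share their frame and length because they were chosen for both, and their genes were high in different places. In Col4a1 only 2 of 50 inner coding exons have this length. Among groups with at least 30 spots in each section, Col1a2, Col3a1 and Col4a1 were highest in meningeal spots, Col9a3 in the choroid plexus and Col11a1 in CA3, as described below. Col25a1 was highest in a thalamic group of the trained section and in the habenula of the untrained section, below its level in a group led by Cartpt that had only 5 trained spots. Col4a1 (- strand) and Col4a2 (+ strand) lie head to head on chromosome 8, with annotated starts that overlap by 21 bases, and Col4a6 and Col4a5 lie head to head on chromosome X with starts 1343 bases apart. In windows from 250 bases before to 50 bases after each RefSeq start on GRCm38, the letters GGGCGG on either strand were present in 60.5% of 38 windows of 35 collagen genes and in 35.7% of all 32851 windows. CCAAT was present in 34.2% of the collagen windows and 37.4% of all windows. For TATAAA the shares were 13.2% and 13.6%.

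The trained section held 4152 spots with 29515831 unique molecular identifiers (UMIs, each tagging 1 captured RNA molecule) and a median of 5950.5 per spot. The untrained section held 3738 spots with 59029131 UMIs and a median of 13766.5. The tables of the sections shared 3448 spot barcodes, which belong to the fixed positions of the slide design. Collagen genes took 5656 UMIs in the trained section, or 192 counts per 1e6 UMIs (CPM), and 13894 UMIs or 235 CPM in the untrained section. All 44 members had at least 1 UMI in the trained section and 43 in the untrained section, where Col10a1, the hypertrophic cartilage collagen, had 0 UMIs, which allows up to 3. A spot covers several cells, so fewer cells of a type and less RNA per cell cannot be told apart.

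Members were unevenly detected, and 30 of 44 reached 100 UMIs over both sections. The other 14 had between 3 and 97 UMIs, and no direction is given for them except where stated. They were the type IV chains Col4a3, Col4a4 and Col4a6, the type VI chains Col6a4, Col6a5 and Col6a6, the fibrillar Col2a1 and Col24a1, the fibril-associated Col9a1, Col14a1 and Col19a1, the short-chain Col10a1, and Col17a1 and Col28a1. Of these, Col6a4 had 20 of 20 trained and 30 of 32 untrained UMIs in neuronal spots, and Col4a6 had 5 of 17 and 20 of 63 in meningeal spots. Neuronal spots held most UMIs of all genes in both sections, so the Col6a4 counts are not read as a preference.

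Spots of both sections were grouped by expression, with all collagen genes and a list of collagen pathway genes kept out of the grouping, and groups were named from marker sets. The meningeal group, led by Myoc, Acta2, Aldh1a2, Myh11 and Tagln, held 199 trained and 181 untrained spots and carried smooth muscle markers of vessel walls beside those of fibroblasts. The choroid plexus groups, led by Ttr, held 77 and 164 spots, the white matter group 321 and 338, and the groups of neuronal regions together 3011 and 2729. A further group, led by no marker of its best set and with 350 and 212 spots, stayed unnamed and outside these compartments. Fibroblast and meningeal markers summed to 12003 CPM in trained and 16140 CPM in untrained meningeal spots against 1197 and 1582 CPM in neuronal spots, and 15 of 15 markers reached 5 CPM in the meningeal spots of both sections. White matter spots held 7870 and 7550 CPM of the same markers, and the unnamed group outside the compartments held 3308 and 3680 CPM. The set was thus not particular to the meninges. Mural markers summed to 1121 and 1327 CPM in meningeal and 185 and 210.3 CPM in neuronal spots. The sections did not hold the regions in equal shares. The group with striatal and central amygdala markers had 217 trained and 31 untrained spots, and a group led by Cartpt had 5 and 185.

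Summed over all 44 genes, collagen stood at 420.1 CPM (95% exact Poisson interval 383 to 460.4) in the meningeal spots of the trained section and at 536 CPM (506 to 568) in those of the untrained section. In choroid plexus spots the sum was 594 CPM (539 to 652) and 809.6 CPM (784 to 835). White matter spots held 201 CPM (179.6 to 225) and 181 CPM (166 to 198), and neuronal spots 171 CPM (166 to 176) and 169.9 CPM (166 to 174). The intervals of the sections lay apart in meningeal and choroid plexus spots, where the untrained section was higher, and overlapped in white matter and neuronal spots. Choroid plexus markers summed to 1852 CPM in trained and 5296 CPM in untrained meningeal spots, and their part in the meningeal collagen sum was not tested.

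**Figure D1:**
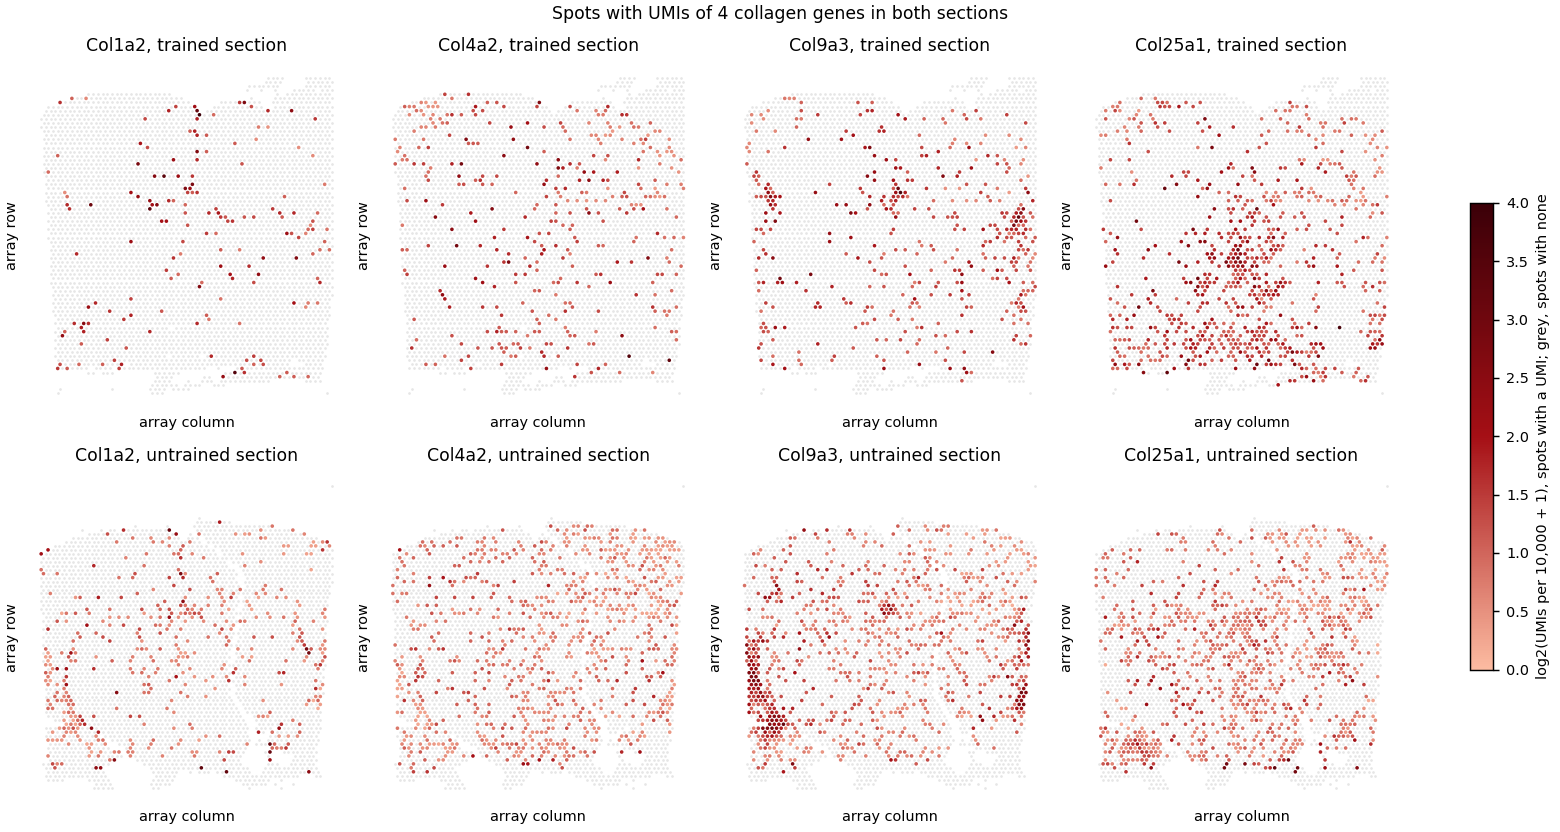
Each panel shows 1 gene in 1 section by array column and row, and tissue spots with a UMI of the gene are coloured by log2(UMIs per 1e4 UMIs + 1), other spots grey. Col9a3 forms compact patches and Col1a2 sparse lines and patches, Col4a2 is scattered over both sections, and Col25a1 is widespread with its densest spots in the middle and lower part of the trained section.

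Among members with enough UMIs for a ratio, type I and type III chains were set apart most by the meninges. Ratios were formed for genes with at least 50 UMIs in the spot groups compared, with 0.5 UMI added to each side, and a ratio past 2-fold was counted as higher or lower whatever its interval. In the trained section 12 of 19 members that met this minimum were higher in meningeal than in neuronal spots, against 6.56% of all 13001 genes, and 1 was lower against 3.52%. The untrained section had 19 of 30 higher, against 8.81% of 14147 genes, and 1 lower against 2.63%. The median log2 ratio of these members was 1.16 and 1.54, beside -0.05 and -0.03 over all genes. A gene with few UMIs can meet the minimum through the spots where it is high, here and in the comparisons below. The counts therefore describe the members compared and not all 44.

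Col1a1, a chain of type I collagen, stood at 26.6 CPM (17.8 to 38.2) in trained and 42.3 CPM (34.2 to 51.8) in untrained meningeal spots, against 1.21 and 2.72 CPM in neuronal spots. Its log2 ratio was 4.46 (95% exact interval 3.67 to 5.25) and 3.96 (3.56 to 4.36). Its partner chain Col1a2 had 63.3 CPM (49.2 to 80.1) and 94.6 CPM (82.2 to 108) in meningeal spots, and log2 ratios of 3.95 (3.48 to 4.40) and 3.89 (3.63 to 4.15). In both sections the meningeal intervals of both chains lay far above the neuronal ones.

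Col3a1, the fibrillar collagen of compliant tissue, had 28.4 CPM (19.3 to 40.4) and 35.5 CPM (28.1 to 44.3) in meningeal spots and log2 ratios of 4.42 (3.66 to 5.17) and 4.47 (3.99 to 4.94). Col5a2, a chain of the type V collagen that starts fibrils, was compared in the untrained section only, with a log2 ratio of 2.50 (1.5 to 3.32). The intervals for its partner Col5a1 included 0, at 0.46 (-1.61 to 1.72) and 0.87 (-0.22 to 1.70). The intervals of both type V chains overlapped in the untrained section.

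Chains of type VI collagen, whose beaded filaments link cells to the matrix, were higher as well. Col6a2 had log2 ratios of 1.57 (0.11 to 2.62) and 2.51 (1.86 to 3.08), and Col6a1 had 1.16 (0.24 to 1.88) and 1.23 (0.55 to 1.80). Col6a3 was compared in the untrained section only, at 2.42 (1.33 to 3.30). Among fibril-associated members, Col9a2 had 1.02 (0.37 to 1.57) and 1.77 (1.33 to 2.17), and Col16a1 had 1.13 (0.45 to 1.70) and 1.04 (0.60 to 1.44). Col12a1, which binds type I fibrils, had 0.90 (-0.20 to 1.72) and 1.54 (0.93 to 2.07), and the difference between the sections was not tested. With spots thinned to 1000 UMIs its untrained ratio turned to -0.85, on 13 UMIs and so under the minimum. The membrane-bound Col23a1 had 1.76 (0.29 to 2.82) and 2.19 (1.58 to 2.72), and the membrane-bound Col13a1, under the minimum in the trained section, had 3.48 (2.63 to 4.26).

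Of the basement membrane members, Col4a1, Col4a2, Col15a1 and Col18a1 had smaller meningeal ratios than the type I and III chains. Col4a1, a chain of the common type IV network, had 33.9 CPM (23.9 to 46.8) and 37.3 CPM (29.7 to 46.3) in meningeal spots, with log2 ratios of 1.61 (1.06 to 2.09) and 1.53 (1.17 to 1.86). Its partner Col4a2 had 26.6 CPM (17.8 to 38.2) and 33.2 CPM (26.0 to 41.8), and ratios of 0.94 (0.32 to 1.46) and 0.94 (0.56 to 1.27), just under 2-fold in both sections. The multiplexins of vascular and epithelial basement membranes passed 2-fold in both. Col18a1 had 1.69 (0.72 to 2.46) and 2.73 (2.31 to 3.11), and Col15a1 had 2.19 (0.81 to 3.23) and 1.93 (1.03 to 2.67). Col4a5, a chain known from the kidney filter, had 19.3 CPM (11.9 to 29.4) in trained and 4.09 CPM (1.87 to 7.77) in untrained meningeal spots, on 21 and 9 UMIs, with intervals that did not overlap. Neuronal spots had 0.725 and 1.14 CPM of it, on 18 and 54 UMIs, and the trained section was under the minimum for a ratio.

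Col11a1 and Col25a1 were lower in meningeal than in neuronal spots of both sections, Col11a1 by more than 2-fold. The log2 ratio of Col11a1, a minor fibrillar chain, was -1.31 (-3.82 to 0.04) and -2.33 (-5.70 to -0.78), on 3 and 2 meningeal UMIs. For Col25a1, a membrane-bound collagen of neurons, it was -0.90 (-1.60 to -0.34) and -0.56 (-1.07 to -0.13). The trained interval of Col11a1 reached past 0, and the other 3 lay below it. With spots thinned to 1000 UMIs the Col11a1 ratio turned to 1.40 in the trained section, on 16 UMIs, and stayed below 0 in the untrained section, on 15 UMIs, both under the minimum.

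**Figure D2:**
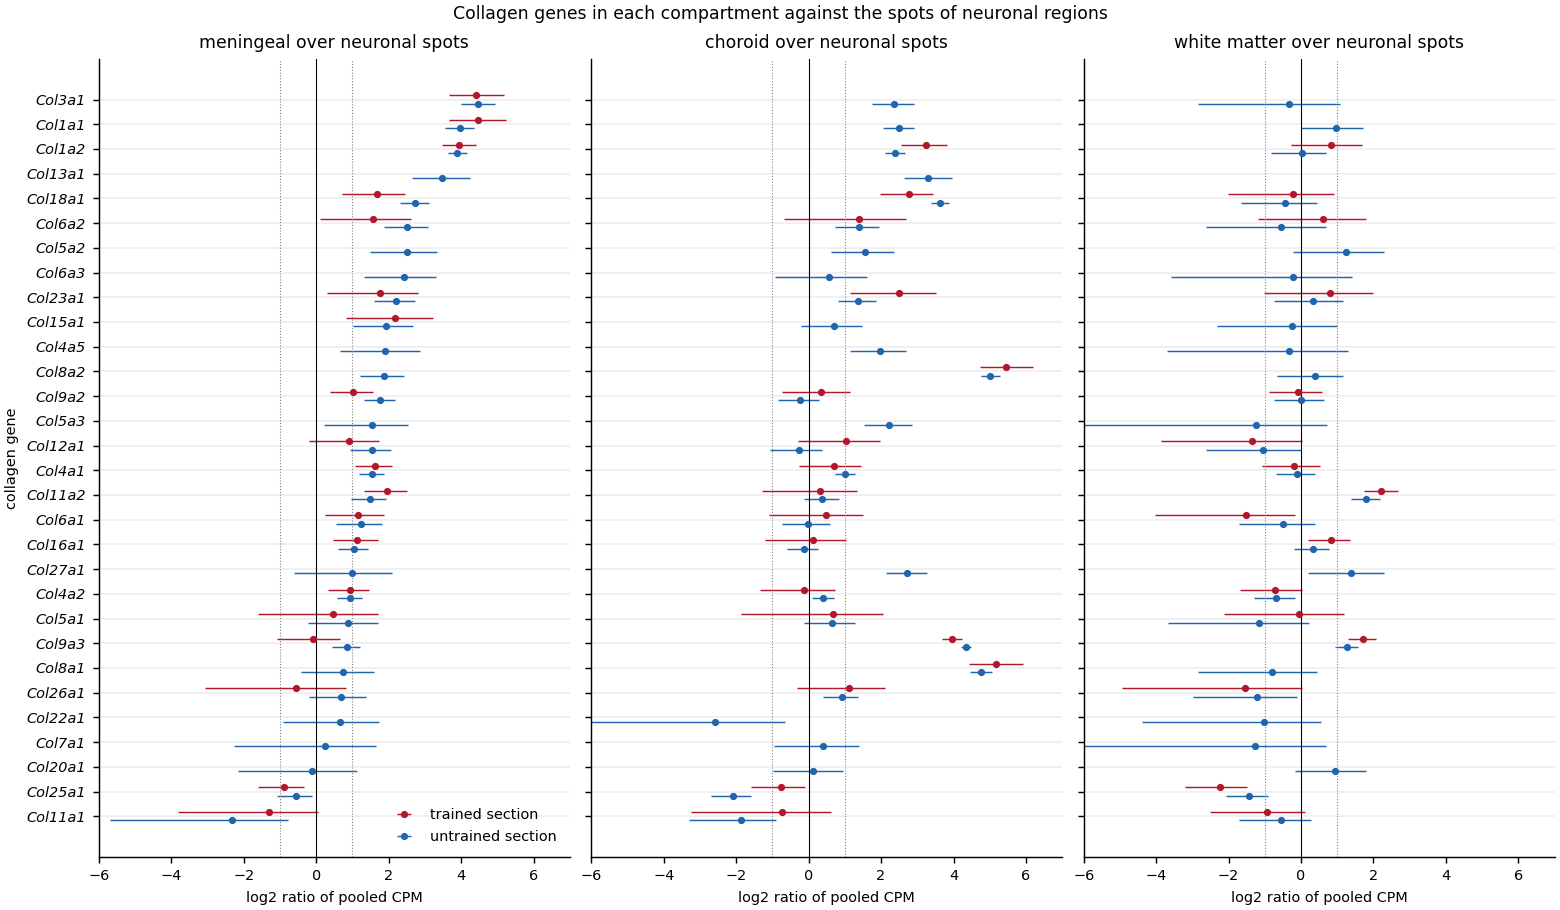
Points are log2 ratios of pooled CPM of meningeal, choroid plexus and white matter spots over neuronal spots for the collagen genes compared in untrained meningeal spots, red for the trained and blue for the untrained section. Bars are exact 95% intervals for counting error, drawn no lower than -6, and dotted lines mark 2-fold. Col3a1, Col1a1 and Col1a2 lie farthest right in the meningeal panel and Col8a2 and Col8a1 in the choroid plexus panel, and Col25a1 lies left of 0 in all panels.

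Within the meningeal group, interior spots and spots within 1 step of the tissue edge differed in the untrained section. Col1a1 had 53.5 CPM (41.5 to 67.8) in the 87 interior spots and 27.0 CPM (17.5 to 39.9) in the 94 edge spots. Col3a1 showed 46.4 CPM (35.3 to 59.8) against 20.5 CPM (12.4 to 32.1), and Col1a2 114 CPM (96.2 to 134) against 68.1 CPM (52.3 to 87.1). The interior spots were thus the higher ones for all 3 chains, with intervals apart. Mural markers summed to 1667 CPM inside and 859.9 at the edge, endothelial markers to 2106 and 1694 and fibroblast markers to 16829 and 15194, and the part of these markers in the chain values was not tested. In the trained section the intervals overlapped, with Col1a2 at 59.1 CPM (41.8 to 81.1) in 114 interior and 69.3 CPM (47.1 to 98.4) in 85 edge spots. Col1a1 and Col3a1 were higher inside there, the same direction as in the untrained section. Col16a1 stood at 32.7 CPM inside and 8.94 CPM at the edge of the trained section and at 30.7 and 15.1 CPM in the untrained section, with overlapping intervals in both.

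Choroid plexus spots were set apart by the type VIII chains, which had the highest ratios in both sections, and by Col9a3. In the trained section 9 of 18 members compared were higher than in neuronal spots, against 11.1% of all genes, and 0 were lower against 15.2%. In the untrained section 16 of 31 were higher against 13.3%, and 3 were lower against 21.5%, namely Col11a1, Col22a1 and Col25a1. The median log2 ratio over these members was 0.87 and 1.01, beside -0.19 and -0.31 over all genes. Here too a gene can meet the minimum through its UMIs in choroid plexus spots.

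Col8a1 had 44.9 CPM (30.9 to 63.1) in trained and 77.4 CPM (69.8 to 85.7) in untrained choroid plexus spots against 1.25 and 2.87 CPM in neuronal spots, with log2 ratios of 5.17 (4.42 to 5.93) and 4.75 (4.47 to 5.05). Col8a2 had 53.1 CPM (37.8 to 72.6) and 114 CPM (105 to 124), with log2 ratios of 5.45 (4.73 to 6.20) and 5.01 (4.76 to 5.27). Both encode chains of type VIII collagen, a short-chain network known from the cornea and from vessel walls. In meningeal spots Col8a2 stood at 2.75 and 12.7 CPM and Col8a1 at 3.67 and 4.55 CPM.

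Col9a3, a chain of the fibril-associated type IX collagen of cartilage, had 206 CPM (174 to 241) and 319 CPM (303 to 335) in choroid plexus spots, with log2 ratios of 3.96 (3.67 to 4.24) and 4.34 (4.22 to 4.47) over neuronal spots. The ratios of its partner chain Col9a2 had intervals that included 0, at 0.33 (-0.75 to 1.13) and -0.24 (-0.85 to 0.27). The remaining chain, Col9a1, had 1 and 3 UMIs there. Of the type IX chains with enough UMIs to compare, then, Col9a3 was set apart by the choroid plexus and Col9a2 was not. Exons of Col9a3 overlap those of Tcfl5 on the opposite strand, and Tcfl5 had 1 UMI in the choroid plexus spots of each section.

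Col18a1, the precursor of endostatin, had 27.2 CPM (16.6 to 42.1) and 58.7 CPM (52.1 to 66.0) in choroid plexus spots and log2 ratios of 2.76 (1.96 to 3.43) and 3.62 (3.37 to 3.88). Col1a2 had ratios of 3.23 (2.56 to 3.83) and 2.39 (2.10 to 2.67). Fibroblast markers summed to 4224 and 5854 CPM in these spots, below their 7870 and 7550 CPM in white matter spots. Their part in the Col1a2 ratio was not tested. Col4a4, a chain of specialised basement membranes, had in the untrained section 55 UMIs in choroid plexus and 25 in neuronal spots and a ratio of 4.43 (3.73 to 5.18). It met the minimum only through its choroid plexus UMIs. The trained section had 5 and 6 UMIs of it, under the minimum. Col4a3, a partner of Col4a4 in such membranes, had 7 of 14 trained and 18 of 24 untrained UMIs in choroid plexus spots. Among other members compared in the untrained section only, Col13a1 had 3.30 (2.64 to 3.96), the fibrillar Col27a1 2.70 (2.13 to 3.25) and the type V chain Col5a3 2.22 (1.52 to 2.87).

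Col11a2 and Col9a3 were past 2-fold higher in white matter than in neuronal spots of both sections. In the trained section 2 of 16 were higher than in neuronal spots, against 10.8% of all genes, and 4 were lower against 19.4%. In the untrained section 4 of 29 were higher against 8.41%, and 7 were lower against 14.3%. Any ratio above 0, whatever its size, was held by 6 of the 16 and 11 of the 29, beside 40.0% and 38.6% of all genes. Col11a2, the partner of Col11a1 in type XI collagen, stood at 33.2 CPM (24.8 to 43.5) and 23.6 CPM (18.2 to 30.1) in white matter, with log2 ratios of 2.22 (1.74 to 2.66) and 1.81 (1.39 to 2.19). Col9a3 stood at 42.8 and 37.6 CPM, with ratios of 1.70 (1.29 to 2.08) and 1.27 (0.95 to 1.56). Col25a1 was lower, with ratios of -2.22 (-3.19 to -1.50) and -1.43 (-2.06 to -0.90). White matter was the highest region of Col11a2 in both sections.

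To look at vessels inside neuronal regions, neuronal spots were ranked within their group by the share of UMIs from endothelial markers, and the top 10% were set against the others. The top spots held 2003 CPM of these markers against 805 in the trained section and 1956 against 1017 in the untrained section, so both sides held endothelial RNA, and 221 and 286 spots lay within 10% of the dividing share. Their median depth was lower, at 5212 UMIs against 7183 in the trained and 12205.5 against 15823 in the untrained section. Of the members compared, 2 of 16 were higher in the trained section (Col1a2 at 1.84 and Col12a1 at 1.28) against 1.44% of all genes, and 0 were lower against 1.14%. In the untrained section 4 of 29 were higher (Col4a5 at 1.52, Col5a2 at 1.12, Col8a2 at 1.11 and Col1a1 at 1.1) against 1.33%, and Col11a1 was lower at -1.74 against 0.992%. With spots thinned to 1000 UMIs the Col11a1 ratio turned to 0.69, on 15 UMIs. No member was past 2-fold in both sections.

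The type IV chains of capillary basement membranes stayed under 2-fold in these spots. Col4a1 had log2 ratios of 0.54 (-0.06 to 1.07) and 0.58 (0.18 to 0.94), and Col4a2 had 0.46 (-0.09 to 0.94) and 0.22 (-0.16 to 0.56). Of these intervals only the untrained one of Col4a1 lay above 0. Ranked by markers of mural cells, the smooth muscle cells and pericytes of vessel walls, the top spots held 733 CPM of the markers against 140.4 in the trained section and 651 against 171 in the untrained section. Here 1 of 16 members was higher in the trained section, Col1a2 at 1.0 (0.03 to 1.78), against 1.48% of all genes, and 0 were lower against 1.09%. In the untrained section 6 of 29 were higher against 1.37%, namely Col3a1 (1.73), Col5a2 (1.70), Col1a1 (1.39), Col1a2 (1.11), Col18a1 (1.11) and Col4a5 (1.05), and Col22a1 was lower at -2.37 against 1.09%, which turned to 0.82 on 2 UMIs with spots thinned to 1000 UMIs. Spots ranked by fibroblast markers gave Col1a2 at 1.93 (1.20 to 2.58) and 1.70 (1.26 to 2.10). Col1a2 was thus past 2-fold in both sections with mural and with fibroblast markers, which were not separated from each other, but on the right side of the trained section alone its mural ratio was -0.23.

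The paired type IV chains were counted in unlike proportions by compartment. The ratio of Col4a1 to Col4a2 UMIs was 0.797 (0.679 to 0.936) in trained and 0.743 (0.668 to 0.825) in untrained neuronal spots. In meningeal spots it was 1.28 (0.764 to 2.15) and 1.12 (0.809 to 1.56), and in choroid plexus spots 1.44 (0.571 to 3.83) and 1.13 (0.865 to 1.47). The neuronal interval of the untrained section lay below that of the choroid plexus and overlapped that of the meninges, and in the trained section all 3 overlapped. The ratio of Col1a1 to Col1a2 UMIs lay between 0.294 and 0.456 in the meningeal, choroid plexus and neuronal spots of both sections, with overlapping intervals.

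Distance from the meninges separated the type I and III chains from the type IV chains. Col1a1, Col1a2 and Col3a1 together had 118 CPM in trained and 172 CPM in untrained meningeal spots. Neuronal spots 1 step away had 11.9 CPM (8.45 to 16.4) and 16.1 CPM (13.2 to 19.4), and those 5 or more steps away 4.92 CPM (3.58 to 6.61) and 9.21 CPM (7.73 to 10.9). Col4a1 and Col4a2 together went from 60.5 and 70.5 CPM in meningeal spots to 26.4 and 33.9 CPM at 1 step and 26.4 and 31.2 CPM at 5 or more steps. The type I and III sum thus went on to lower values beyond 1 step, with intervals apart, whereas the type IV sum at 1 step and at 5 or more steps had overlapping intervals. Col25a1 ran the other way, from 21.1 and 18.2 CPM in meningeal spots to 43.6 and 28.0 CPM at 5 or more steps.

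Around the choroid plexus, Col8a1 and Col8a2 together went from 98.0 and 192 CPM in its own spots to 12.2 CPM (5.28 to 24.1) and 23.3 CPM (15.7 to 33.2) at 1 step and 2.13 CPM (1.54 to 2.87) and 5.45 CPM (4.73 to 6.25) at 5 or more steps. Col9a3 went from 206 and 319 CPM to 38.2 and 35.7 CPM at 1 step and 11.6 and 14.8 CPM at 5 or more. Over the same steps Ttr, the transthyretin transcript of choroid plexus epithelium, went from 138305 and 179554 CPM to 15783 and 18218 and then to 964 and 2878 CPM. The part of choroid plexus RNA in the collagen values of neuronal spots was not tested.

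**Figure D3:**
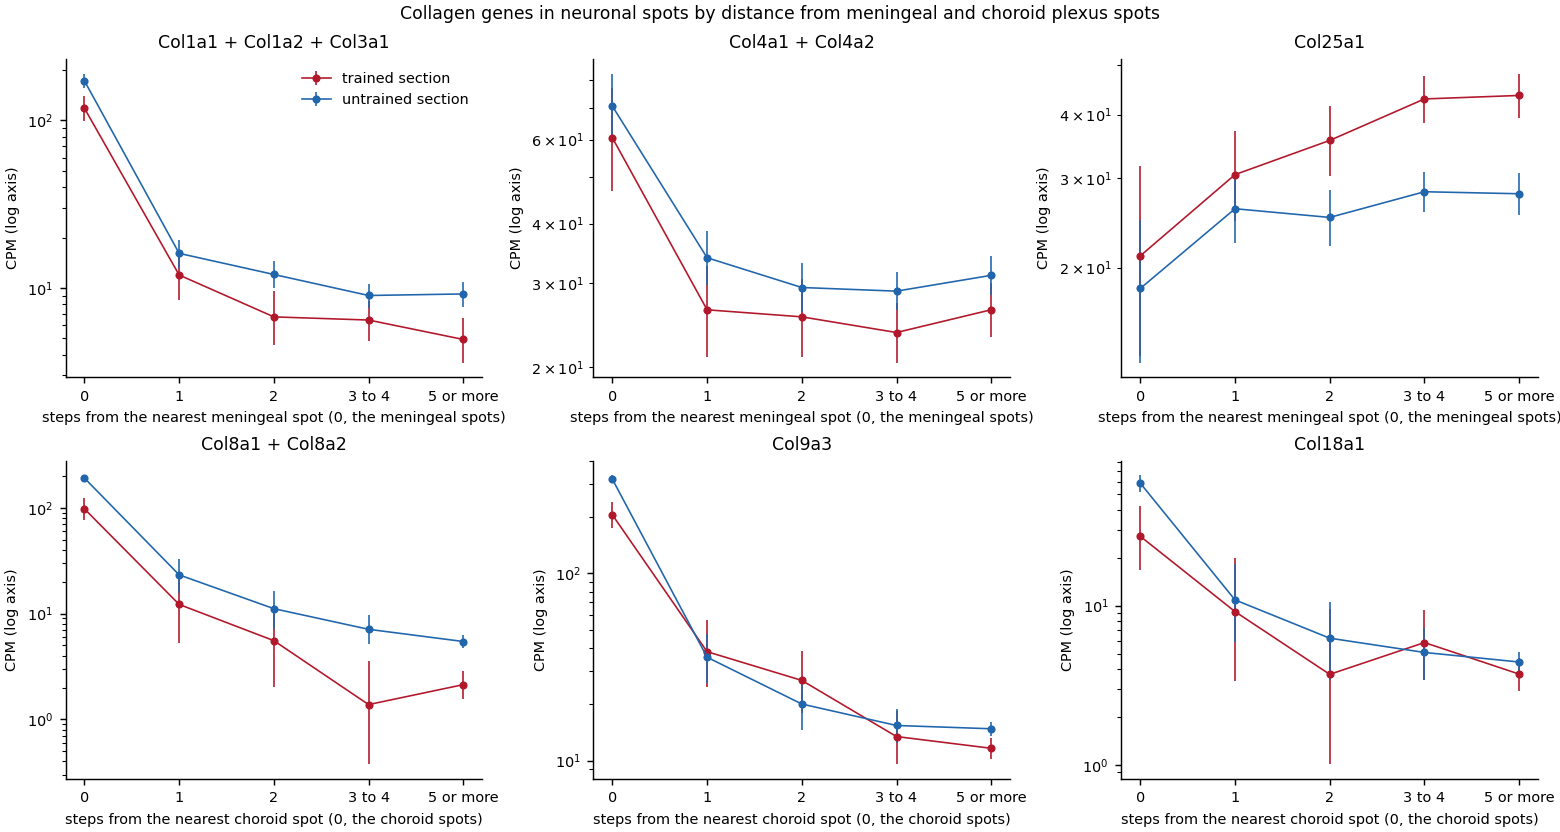
Pooled CPM on log axes of collagen genes or sums in neuronal spots, by steps on the spot grid from the nearest meningeal spot (top) or choroid plexus spot (bottom), with the meningeal or choroid plexus spots themselves at 0, red for the trained and blue for the untrained section. Bars are exact 95% Poisson intervals. The steepest drops lie between 0 and 1 step, Col4a1 + Col4a2 is level beyond 1 step, and Col25a1 is lowest in the meningeal spots.

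Over 17 spot groups with at least 30 spots in each section, 15 of the 22 members with at least 50 UMIs in each section had the same highest group in both, beside 44.9% of all 13322 genes with that minimum. The meninges were highest for 7 of them (Col15a1, Col1a1, Col1a2, Col3a1, Col4a1, Col4a2 and Col4a5), the choroid plexus for 4 (Col18a1, Col8a1, Col8a2 and Col9a3) and white matter for Col11a2. A neuronal region was highest for 3, with Col11a1 in CA3, Col16a1 in the habenula and Col6a1 in the group with striatal and central amygdala markers. For the other 7 (Col12a1, Col23a1, Col25a1, Col26a1, Col5a1, Col6a2 and Col9a2) the highest group was not the same. The intervals of the highest and the second group lay apart for 3 members in the trained section (Col8a1, Col8a2 and Col9a3), beside 13.8% of all genes, and for 13 in the untrained section, beside 16.6%, so in most trained cases the order of the leading groups was within counting error. For Col15a1, Col4a1, Col4a2, Col4a5 and Col11a2 these intervals overlapped in both sections. Untrained Col4a5 stood at 4.095 CPM in the meninges and 4.093 CPM in the choroid plexus, on 9 meningeal UMIs.

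Col11a1 marked the pyramidal layers of the hippocampus. CA3 spots held 43.1 CPM (32.0 to 56.8) in the trained and 26.4 CPM (21.3 to 32.5) in the untrained section, and CA1 spots 36.3 CPM (26.9 to 48.0) and 14.6 CPM (10.8 to 19.3). Dentate granule spots had 1 UMI in each section, or 0.684 CPM (0.0173 to 3.81) and 0.253 CPM (0.00641 to 1.41). The pyramidal layers were therefore above the dentate gyrus in both sections with intervals apart, and CA3 was above CA1 beyond counting error in the untrained section only. Its partner chain Col11a2 had 6.89 and 7.27 CPM in CA3, beside 7.17 and 6.79 CPM over all neuronal spots.

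Other members had their high places outside the pyramidal layers. Col6a1 stood at 23.9 CPM (17.9 to 31.4) in the trained and 44.9 CPM (22.4 to 80.3) in the untrained group with striatal and central amygdala markers, and at 0 and 0.525 CPM in the thalamic group led by Prkcd. Col16a1, which attaches to fibrils and cell surfaces, stood at 33.9 CPM (19.0 to 56.0) and 48.8 CPM (38.2 to 61.4) in the habenula and at 1.72 and 5.81 CPM in CA3. The intervals of these high and low places lay apart in both sections. Dentate granule spots had 6.15 CPM (2.81 to 11.7) and 7.60 CPM (5.13 to 10.8) of Col22a1, a collagen of tissue junctions, beside 1.81 and 1.86 CPM over all neuronal spots. They had 6.15 CPM (2.81 to 11.7) and 5.83 CPM (3.69 to 8.74) of Col20a1, a fibril-associated member, beside 1.49 and 2.19 CPM.

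Col9a2 was sparse in the hippocampus, at 1.48 and 1.79 CPM in CA1 and 3.45 and 1.74 CPM in CA3, and stood at 26.2 CPM (19.5 to 34.4) and 13.4 CPM (10.2 to 17.3) in the hypothalamic group led by Oxt. An unnamed group led by Trbc2, Myl4 and Hs3st2, with Fezf2 and Tbr1 among its leading genes, had 10.1 CPM (7.38 to 13.5) and 5.38 CPM (3.80 to 7.38) of Col5a1 and 11.9 CPM (8.92 to 15.6) and 7.64 CPM (5.74 to 9.97) of Col12a1. CA1 had 0 and 1.19 CPM of Col5a1 and 0.741 and 1.19 CPM of Col12a1. In both sections the unnamed group lay above CA1 for both genes, with intervals apart. Col26a1 stood at 8.28 and 8.57 CPM in upper neocortex and 10.1 and 7.24 CPM in the thalamic group led by Ctxn3. The type IV chain Col4a1 stood at 17 and 15.8 CPM in CA1, 11.7 and 12.5 CPM in upper neocortex, 8.89 and 12.9 CPM in dentate granule spots, and at 7.36 CPM (4.21 to 11.9) and 0 UMIs in the group with striatal and central amygdala markers, its lowest group in both sections among the 17 compared. The untrained count came from 31 spots and allows up to 3 UMIs, and Col4a2 stood at 28.6 CPM (11.5 to 58.8) there. Agreement of the sections is not read from this count of 0.

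**Figure D4:**
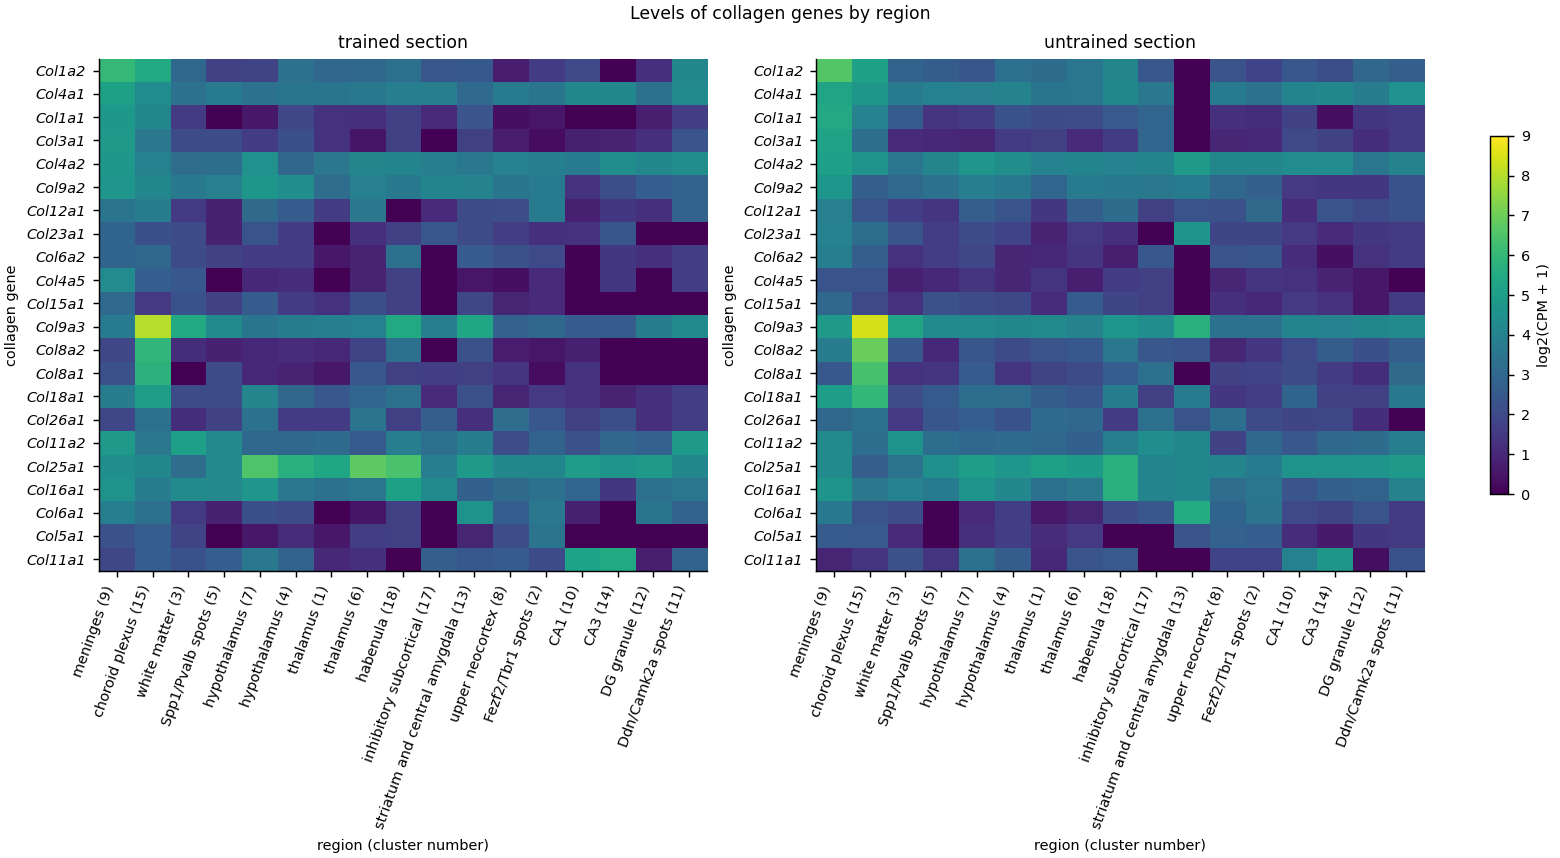
Colour gives log2(CPM + 1) of 22 collagen genes in 17 spot groups, with the group number in brackets, for the trained (left) and the untrained section (right). Type I, III and IV chains are brightest in the meningeal column, Col8a1, Col8a2, Col9a3 and Col18a1 in the choroid plexus column, and Col11a1 in CA3. The untrained striatal column rests on 31 spots.

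Col25a1 had 1000 trained and 1290 untrained UMIs in neuronal spots and was unevenly spread among them. In the trained section the thalamic group led by Ctxn3, Gbx2 and Cbln1 had 109 CPM (95.8 to 123), the hypothalamic group led by Oxt 90.3 CPM (77.5 to 105) and the habenula 83.7 CPM (58.9 to 115). The untrained section had 29.2 CPM (24.4 to 34.7), 31.1 CPM (26.2 to 36.8) and 51.5 CPM (40.6 to 64.4) in the same groups, and 59.9 CPM (52.4 to 68.2) in the group led by Cartpt. Upper neocortex was lower in both sections, at 17.5 and 15.8 CPM. The order of the 3 diencephalic groups was not the same, since the habenula was above the others in the untrained section and overlapped them in the trained section.

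Between the sections, Col25a1 differed in some diencephalic groups beyond counting error. The log2 ratio of the trained over the untrained section was 1.90 (1.59 to 2.22) in the thalamic group led by Ctxn3, 1.53 (1.21 to 1.87) in the hypothalamic group led by Oxt, 1.02 (0.62 to 1.45) in the hypothalamic group led by Pmch and 0.71 (0.09 to 1.29) in the habenula. The intervals included 0 in the thalamic group led by Prkcd, at 0.23 (-0.18 to 0.61), and in the hippocampal groups, at 0.41 (-0.18 to 0.97) in CA1, 0.09 (-0.61 to 0.71) in CA3 and 0.21 (-0.36 to 0.75) in dentate granule spots. Levels in CA1 were 30.4 CPM (21.8 to 41.2) in the trained and 22.9 CPM (18.1 to 28.7) in the untrained section. The groups pool spots by expression, the sections held them in unequal numbers, and the part of the cutting level in these ratios was not tested.

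Genes of like pattern were taken as those with the highest Pearson r of log2 CPM across the 17 groups, using the lower r of the sections. For Col1a2 these were Ahnak (0.90), Cavin1 (0.89) and Slc6a20a (0.85). For Col4a1 they were Gas1 (0.69), Islr (0.69) and Tpcn1 (0.67), and for Col25a1 Pnmal1 (0.79), Lonrf2 (0.77) and C530008M17Rik (0.75). All points of a section share a library, and Col19a1, with 6 UMIs in each section, was too sparse for such a comparison.

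Over the whole sections, no member compared was higher in the trained section by 2-fold, and several members of the choroid plexus were lower. Of 30 members with at least 100 UMIs over both sections, 0 were higher against 1.95% of all 14155 genes, and 6 were lower against 2.79%. The median log2 ratio of trained over untrained was -0.28 over these members and 0.06 over all genes. The type VIII chains were lowest, Col8a2 at 2.54 CPM against 12.9 CPM, a log2 ratio of -2.33 (-2.70 to -2.0), and Col8a1 at 2.44 against 8.89 CPM, a log2 ratio of -1.86 (-2.24 to -1.51). The others were Col5a2 at -1.35 (-2.2 to -0.65), Col1a1 at -1.11 (-1.51 to -0.74), Col9a3 at -1.08 (-1.22 to -0.95) and Col18a1 at -1.03 (-1.31 to -0.77). The untrained section also held more choroid plexus spots, 164 of 3738 against 77 of 4152. On the right side alone 1 of 22 members compared was lower by 2-fold, and with each spot weighted equally 3 of 30. The share of all genes is not given for these alternatives, so these counts stand without a background.

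Without choroid plexus spots, a comparison added after the data were seen, 0 of 27 members were higher against 1.90% of all genes and 3 were lower against 1.40%, Col8a2 at -1.61 (-2.18 to -1.12), Col8a1 at -1.04 (-1.60 to -0.54) and Col1a1 at -1.02 (-1.46 to -0.62). Col9a3 then stood at -0.21 (-0.38 to -0.05) and Col18a1 at -0.41 (-0.72 to -0.11), and Col5a2 had too few UMIs to compare. Among choroid plexus spots alone, 0 of 7 members were higher against 4.75% and 2 were lower against 2.38%, Col8a2 at -1.09 (-1.61 to -0.64) and Col18a1 at -1.07 (-1.84 to -0.45). Col8a1 stood at -0.77 (-1.35 to -0.27) there and Col9a3 at -0.63 (-0.88 to -0.39). The choroid plexus spots came from groups 15 and 20 in unlike numbers, 54 and 23 in the trained and 139 and 25 in the untrained section. In group 15 alone, set apart after the data were seen, the ratios were -0.995 (-1.57 to -0.51) for Col8a2, -0.96 (-1.80 to -0.30) for Col18a1, -0.58 (-1.19 to -0.06) for Col8a1 and -0.41 (-0.68 to -0.17) for Col9a3, so that none of these was past 2-fold. Choroid plexus markers summed to 146170 CPM in trained and 192040 CPM in untrained choroid plexus spots, and their part in the ratios was not tested. The type VIII chains were thus lower in the trained section inside and outside choroid plexus spots, and by smaller ratios in each than over the whole section.

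In neuronal spots 0 of 23 members were higher against 1.97% of all genes and 3 were lower against 1.42%, Col8a2 at -1.53 (-2.16 to -0.99), Col8a1 at -1.18 (-1.81 to -0.63) and Col1a1 at -1.15 (-1.80 to -0.59). Choroid plexus markers summed to 2227 CPM in trained and 4039 CPM in untrained neuronal spots, and their part in the type VIII ratios was not tested. On the higher side Col9a2 at 0.72 (0.50 to 0.95), Col25a1 at 0.57 (0.45 to 0.69) and Col11a1 at 0.48 (0.21 to 0.75) had intervals above 0 and under 2-fold. Within single groups, where ratios needed 50 UMIs over both sections, Col11a1 was at 1.32 (0.71 to 1.92) in CA1, 0.71 (0.18 to 1.22) in CA3 and 0.33 (-0.51 to 1.1) in the hypothalamic group led by Oxt. Beside the Col25a1 ratios above and that of Col11a1 in CA1, ratios past 2-fold higher in single groups were those of Col9a2 at 1.01 (0.39 to 1.64) in the unnamed group led by Trbc2 and of Col4a1 at 2.33 (-1.06 to 3.94) in the group led by Cartpt, on 2 trained UMIs. Past 2-fold lower were Col9a3 at -1.52 (-2.99 to -0.46) in CA1, -1.42 (-3.03 to -0.30) in CA3 and -1.20 (-2.23 to -0.36) in the meningeal group, Col18a1 at -1.25 (-2.23 to -0.45) in the meningeal group, and Col4a2 at -1.59 (-2.49 to -0.84) in the hypothalamic group led by Pmch. These were picked from many ratios of members in single groups. The share of all genes past 2-fold is not given for single groups, so these ratios and those of Col25a1 stand without a background. Meningeal spots gave Col1a1 at -0.65 (-1.32 to -0.05) and Col1a2 at -0.57 (-0.99 to -0.18). Fibroblast markers stood there at 12003 CPM in the trained and 16140 CPM in the untrained section and choroid plexus markers at 1852 and 5296 CPM, and the part of these markers in the meningeal ratios was not tested.

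**Figure D5:**
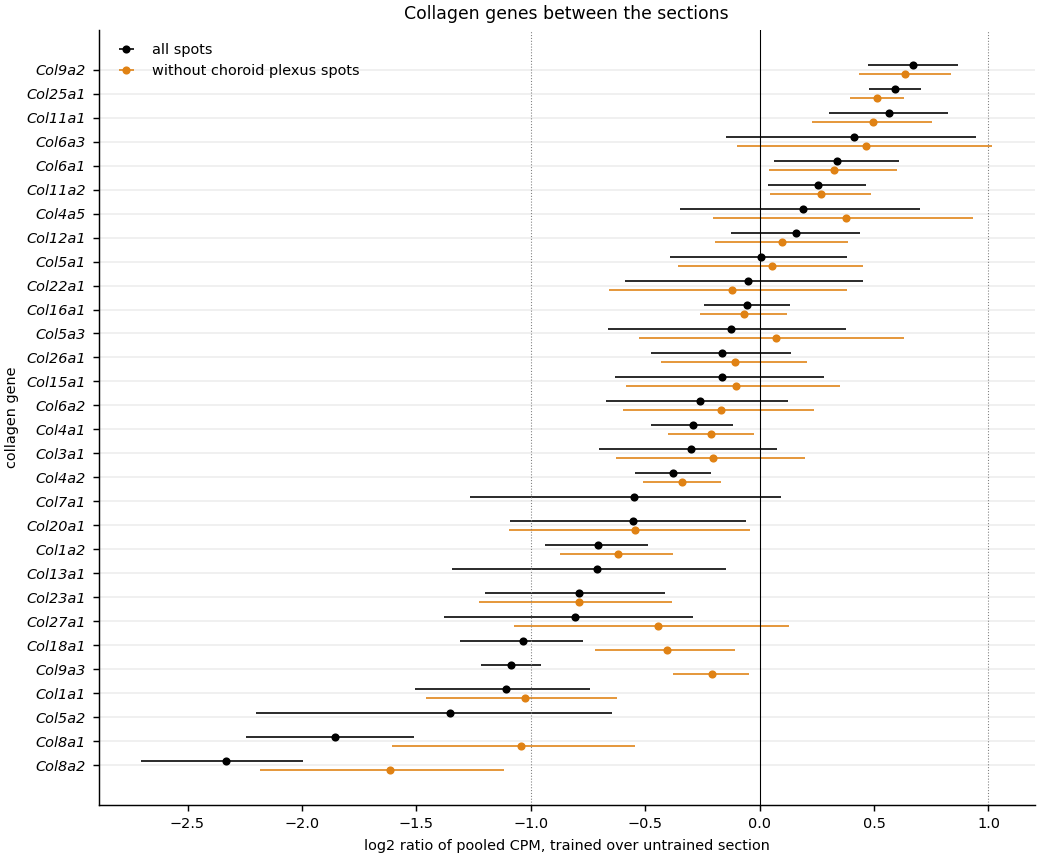
Points are log2 ratios of pooled CPM of the trained over the untrained section for 30 collagen genes, over all spots (black) and without choroid plexus spots (orange, where at least 100 UMIs remained), with exact 95% intervals for counting error. Dotted lines mark 2-fold. Col9a3 and Col18a1 lie beyond the left line over all spots and inside it without choroid plexus spots, whereas Col8a1, Col8a2 and Col1a1 stay beyond it.

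The genes that build, anchor and degrade collagen were described from 6 lists. In meningeal over neuronal spots, 8 of 10 fibril partners compared were past 2-fold higher in the trained and 11 of 12 in the untrained section, with Fmod (5.38 and 4.25) and Lum (4.72 and 3.67), small proteoglycans that bind fibrils, at the top in log2 ratio. Basement membrane partners had 7 of 10 and 9 of 12 higher, with Nid1, the linker of laminin and type IV collagen, at 2.58 and 2.75. Of the folding, modification and secretion genes 6 of 20 and 5 of 21 were higher, led by Serpinh1, the collagen chaperone (2.84 and 2.10). The background shares were 6.56% and 8.81% for higher and 3.52% and 2.63% for lower genes, as above.

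The remaining lists had fewer genes to compare. Processing and crosslinking genes had 2 of 4 and 3 of 7 higher, led by Pcolce, which speeds the trimming of procollagen (3.19 and 3.03). Receptors had 3 of 6 and 5 of 8 higher, led by Mrc2, an uptake receptor for collagen (3.44 and 3.34), and 1 and 0 lower. Degradation genes had 2 of 7 and 4 of 10 higher, led by Ctsk, a collagen-cutting protease (2.26 and 2.26), and 0 and 2 lower. In choroid plexus spots the shares higher were 8 of 10 and 10 of 12 for fibril partners, 6 of 10 and 8 of 12 for basement membrane partners, 7 of 20 and 7 of 21 for folding genes, 2 of 4 and 4 of 7 for processing genes, 4 of 6 and 5 of 9 for receptors and 2 of 7 and 3 of 10 for degradation genes, against 11.1% and 13.3% of all genes, with Nid2, a relative of Nid1, at 4.66 in the untrained section.

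Over the whole sections, none of the genes compared in these lists was higher in the trained section by 2-fold. Processing and crosslinking genes had 3 of 7 lower, among them the crosslinking enzymes Loxl2 (-2.2) and Loxl1 (-2.11), and degradation genes 2 of 9, the proteases Mmp2 (-1.84) and Mmp14 (-1.38). Fibril partners had 2 of 12 lower, basement membrane partners 1 of 12, receptors 1 of 7 and folding genes 0 of 21. The background share of lower genes was 2.79% as above. Without choroid plexus spots the counts lower were 3 of 7 for processing and 2 of 9 for degradation genes and 0 of 11 for fibril partners, 0 of 12 for basement membrane partners, 0 of 7 for receptors and 0 of 21 for folding genes, against 1.40% of all genes.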

How the data were processed

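Polyadenylated RNA was counted in capture spots of 1 coronal brain section per group (trained, untrained), and the labels name no further replicate. The deposited counts were raw UMI counts per gene and spot under tissue, made by the authors with Space Ranger 2.0.0 on the mouse genome build mm10 after adapter trimming, with no pooling. A deposited score per gene, Moran's I by the authors, was read but supports no result. Image scale factors were not used.

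CPM were UMIs pooled over spots per 1e6 UMIs. Intervals were exact 95% Poisson intervals for levels and exact conditional binomial intervals for ratios, and both cover counting error only. Ratios carried 0.5 UMI on each side and needed 100 UMIs between sections, or 50 UMIs within a section or for a single group between sections. Spots with at least 500 UMIs (7582, leaving out 194 trained and 114 untrained) were grouped jointly by Leiden clustering at resolution 1.5 on 30 principal components of 932 genes, with 15 neighbours and without collagen or pathway genes. For a name, a group needed at least 3 markers of its best set at 5 CPM, a high mean score over that set, and at least 1 marker among its leading genes and no fewer than any other set. Of 3 unnamed groups, 2 were counted as neuronal and 1 stayed outside the compartments. With 1 section a group, no test was run, and values are named for members with at least 100 UMIs over both sections, for pathway genes that were the 2 highest or 2 lowest of a list, and for the 3 genes of most like pattern. The collagen family, the marker lists and the pathway lists were chosen for study with earlier results of these data known, and symbols alone decided which genes were members. Members with fewer UMIs that are named were chosen after their values were seen. The ratio calculation was tested on simulated data. Alternatives changed the total, the added count, the minimum, the spot weights, the depth (1000 UMIs a spot), the side of the section, the resolution and the marker cut. Exons and promoter windows came from GRCm38 and RefSeq.

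Software was Python 3.11.15, numpy 2.4.6, pandas 2.3.3, scipy 1.17.1, scanpy 1.11.5, leidenalg 0.10.2 and matplotlib 3.10.9.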

Additional observations from a re-analysis of the deposited data

Results flagged for a closer look

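Col12a1, a fibril-associated collagen, lay on opposite sides of 0 in the sections when choroid plexus spots were set against neuronal spots. Its log2 ratio was 1.03 (95% exact interval -0.29 to 1.97) in the trained and -0.28 (-1.07 to 0.36) in the untrained section. Both intervals included 0, and the difference was not tested.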

How the results depend on the processing

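Over 465 values of single members under an alternative, of which 359 met the minimum of UMIs, 460 kept their direction, 404 of them inside the counting interval, and 5 turned. Only members already past 2-fold in the main comparison entered these values. The higher minimum leaves a ratio unchanged by construction, so its values could not turn and the tally overstates stability. With spots thinned to 1000 UMIs, 4 log2 ratios turned, on 2 to 16 UMIs and all under the minimum, namely Col11a1 at 1.40 in trained meningeal spots, Col12a1 at -0.85 in untrained meningeal spots, Col11a1 at 0.69 in untrained endothelial-rich spots and Col22a1 at 0.82 in untrained mural-rich spots. On the right side alone Col1a2 was at -0.23 in trained mural-rich spots. The count of members past 2-fold between the sections, 6, became 3 with each spot weighted equally, 1 when thinned, 1 on the right side alone and 3 without choroid plexus spots. Except without choroid plexus spots, the share of all genes under an alternative is not given, so the counts here stand without a background. The count in trained meningeal spots, 13, became 8 with a minimum 2 times as high, 5 on the left side alone and 0 when thinned, with 1 member left to compare. The count in untrained meningeal spots, 20, became 0 when thinned, with 3 members left. In endothelial-rich spots the trained count of 2 became 0 when thinned, and the untrained count of 5 became 3 with the higher minimum, 0 when thinned, 2 on the left, 3 on the right and 2 with the top 20% of spots. In mural-rich spots the trained count of 1 became 2 with 2 UMIs added, 0 when thinned, 2 on the left and 0 on the right, and the untrained count of 7 became 3 with the higher minimum, 0 when thinned, 2 on the left and 4 on the right. The count of members with the same highest region, 15, became 9 of 13 with the higher minimum. For thinning, the higher minimum and 1 side alone, fewer members met the minimum by construction, and the cause of the other differences was not tested. No paired analysis was possible because each group held 1 section. Depth limits the values, since 14 of 44 members had fewer than 100 UMIs over both sections, and the trained section held 29515831 UMIs against 59029131.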
